A study of Homo sapiens with 12 samples.

Results

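The SR and hnRNP splicing factor genes encode RNA-binding proteins that decide which exons are kept when messenger RNA is made. They were taken here as the protein-coding intervals of the count table whose symbol is SRSF followed by a number, TRA2A, TRA2B, or HNRNP followed by letters or digits, with the shortest interval kept for each symbol. This gave 39 of 21182 protein-coding intervals, comprising 12 SR genes, 2 TRA2 genes and 25 hnRNP genes. Of these 39, 32 had an interval that matched the gene: all 12 SR genes, both TRA2 genes and 18 hnRNP genes. The intervals of HNRNPH1, HNRNPL, HNRNPR, HNRNPCL1, HNRNPCL2, HNRNPCL3 and HNRNPCL4 reach far beyond the gene and were not used. All 32 passed the filter on low counts, although SRSF8 did so with 16 to 79 reads in a library and SRSF12 with 12 to 26.

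The RNA came from A172 cells, a human glioblastoma line labelled as adherent and of wild-type genotype. The study silenced uc.110, a transcribed ultraconserved region, and asked which genes differ afterwards. Cells received siRNA-2 against uc.110, siRNA-1 against uc.110 or a scrambled control siRNA by lipid transfection for 6 h on day 1, and RNA was taken on day 2. Each of these 3 groups held 4 libraries of the 1 cell line, and nothing in the labels ties them to separate cultures. The p-values therefore reflect how far these samples scatter, and that scatter may be technical. In bulk RNA, fewer cells of a kind and less RNA per cell cannot be told apart.

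Library totals over the intervals kept were between 43377711 and 54517203 counts. uc.110 itself, at chr2:236162738-236162980 (hg38), held 3, 0, 4 and 0 reads with siRNA-2, 2, 0, 1 and 2 with siRNA-1, and 4, 0, 1 and 6 in the scrambled libraries, so a lowering of the target was not detectable at this depth. All 8 glioma and mesenchymal markers had reads, and their summed level was 3420 to 3650 CPM with siRNA-2, 2970 to 3290 CPM with siRNA-1 and 3810 to 4170 CPM in the scrambled libraries, with no overlap between groups. Most of that sum was VIM, the intermediate filament gene vimentin, at 1870 to 1980 CPM with siRNA-2, 1580 to 1780 CPM with siRNA-1 and 2430 to 2690 CPM in the scrambled libraries. The astrocyte marker GFAP was at 6.92 to 7.63 CPM with siRNA-2, 7.98 to 8.81 CPM with siRNA-1 and 5.72 to 6.61 CPM in the scrambled libraries. FN1 (186 to 204, 100 to 116 and 92.8 to 99.5 CPM in the same order) and OLIG2 (9.13 to 10.4, 7.69 to 9.33 and 4.17 to 4.91) were higher with both siRNAs. CD44 (835 to 865, 564 to 600 and 659 to 720) was higher with siRNA-2 and lower with siRNA-1, and NES went the opposite way. EGFR and SOX2 overlapped the scrambled group with both. Of the 5 hematopoietic and endothelial markers, 3 had a usable interval and all 3 had reads, PTPRC and AIF1 being the ones without. Their summed level was 151 to 182 CPM with siRNA-2, 69.5 to 84.8 CPM with siRNA-1 and 39.5 to 46.4 CPM in the scrambled libraries, and most of it was CD68, a lysosomal gene used as a macrophage marker. The other markers did not follow it. PECAM1 was at 2.56 to 4.16 CPM with siRNA-2, 3.25 to 5.36 with siRNA-1 and 2.34 to 3.81 in the scrambled libraries. VWF was at 0.526 to 0.666 CPM with siRNA-2, 1.3 to 1.55 with siRNA-1 and 0.868 to 1.17 in the scrambled libraries. The part of these markers in the results was not tested. The neuron and oligodendrocyte markers, 4 of 5 measured, summed to 25.5 to 27.8 CPM with siRNA-2, 23.8 to 27.4 CPM with siRNA-1 and 29.9 to 32.6 CPM in the scrambled libraries. The 2 epithelial markers summed to at most 2.11 CPM in any library. Intervals covered by a single library numbered 1679 for scrambled replicate 1 and 91 to 176 for the other libraries. The largest share of counts in a ribosomal RNA interval was 5.37%, in siRNA-1 replicate 3, followed by 3.00% in siRNA-2 replicate 2.

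SR proteins carry a domain rich in arginine and serine and mostly help exons to be recognised, while hnRNP proteins often oppose them. Many of these genes control their own level through a poison exon, an alternative exon with an early stop codon. When the protein is abundant the exon is included, and the RNA is destroyed by nonsense-mediated decay. Several poison exons lie in ultraconserved regions, which are identical in human, mouse and rat. At least 1 ultraconserved region lay in 11 of the 32 genes (34.4%), against 0.94% of the other 19139 protein-coding intervals used.

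Poison exons of 4 members are printed because the stop codon that destroys the RNA can be read in them. They come from GENCODE transcripts annotated as targets of nonsense-mediated decay (GRCh38). Each runs 5′ to 3′ from the first base of the exon to its in-frame stop codon, which is in capitals, and lies inside an ultraconserved region.
TRA2B, uc.138, chr3:185931772-185931852, minus strand: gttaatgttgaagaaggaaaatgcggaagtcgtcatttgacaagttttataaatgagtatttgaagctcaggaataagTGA
SRSF3, uc.189, chr6:36599821-36599854, plus strand: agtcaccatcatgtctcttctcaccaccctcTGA
SRSF6, uc.456, chr20:43459153-43459304, plus strand: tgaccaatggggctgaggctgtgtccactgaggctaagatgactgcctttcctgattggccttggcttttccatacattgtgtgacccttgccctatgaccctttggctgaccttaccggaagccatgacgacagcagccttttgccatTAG
SRSF7, uc.50, chr2:38749319-38749346, minus strand: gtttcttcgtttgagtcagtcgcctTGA
The stop codon is TGA in the TRA2B, SRSF3 and SRSF7 exons, and TAG in the SRSF6 exon. The distance from the start of the exon to the end of the stop codon is 28 bases in SRSF7, 34 in SRSF3, 81 in TRA2B and 152 in SRSF6.

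Exons under the regions of TRA2A and HNRNPK are printed because the reads of these regions are described below. The TRA2A exon belongs to a transcript annotated as a decay target, and the HNRNPK exon is coding. All 164 exonic bases of uc.209, those of this TRA2A exon among them, also lie in exons of protein-coding transcripts. The adjoining TRA2A region, uc.208, has 0 bases in exons of decay transcripts. Reads of these regions therefore do not mark the decay transcript alone.
TRA2A, uc.209, chr7:23522354-23522432, minus strand: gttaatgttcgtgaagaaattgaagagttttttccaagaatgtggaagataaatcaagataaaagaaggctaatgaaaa
HNRNPK, uc.263, chr9:83975462-83975505, minus strand: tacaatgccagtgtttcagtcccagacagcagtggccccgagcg
Both TRA2 exons open with the same 9 letters, gttaatgtt.

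Per kilobase of exon, the most abundant of these genes in scrambled cells were HNRNPA2B1, which encodes an RNA-binding protein of messenger RNA transport and splicing, at 179 ± 3.19 CPM per kilobase, HNRNPK, a poly-C binding protein gene, at 127 ± 2.63, and HNRNPAB at 122 ± 2.76 (SD, n = 4). HNRNPK and HNRNPAB were closer to each other than the sum of their SDs. SRSF1, the founding SR protein gene, led the SR genes at 81.3 ± 1.48 CPM per kilobase. HNRNPLL, at 7.28 ± 0.31, was the lowest of the well-covered genes, and SRSF8 and SRSF12 lay at 0.22 ± 0.04 and 0.09 ± 0.02. The exon length is that of all annotated transcripts merged, so the order depends on the annotation. HNRNPU, at 862.5 CPM with 22.51 kilobases of such exon, lay at 38.3 CPM per kilobase. These levels count reads of introns and of overlapping genes too. Of the 32 genes, 20 overlap another interval, and not every overlap is named below. HNRNPA1 and HNRNPA1L2 have near-identical copies elsewhere, so their counts are uncertain.

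With siRNA-2, 18 of the 32 genes were lower than in scrambled cells and 6 were higher (edgeR quasi-likelihood test, adjusted p under 0.05). Over all genes tested, 26.2% were lower and 29.9% were higher. Among protein-coding genes of a like level (average log2 CPM of at least 5, a background chosen after seeing the data) 38.9% were lower and 38.1% were higher. This background sets only a floor and is not matched to the level of each member, and SRSF8 and SRSF12 lie below the floor. The members' median log2 fold change was -0.12, against 0.01 for all genes tested. The share lowered, 56.2%, was above both backgrounds, and the share raised, 18.8%, was below both. Of the 12 genes that overlap no other interval, 6 were lower and 2 were higher.

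With siRNA-1, 11 of the 32 genes were lower than in scrambled cells and 6 were higher, or 15 and 5 when protein-coding intervals were fitted alone. Over all genes tested, 24.9% were lower and 28.6% were higher, and among protein-coding genes of a like level 34.6% and 40.2%. In the main fit the share lowered, 34.4%, was thus near that of genes of a like level, and the median log2 fold change was -0.04, against 0.01 for all genes tested. Over the alternatives the number lower ran from 9 to 15, and the background shares were not computed for those fits. Of the 12 genes that overlap no other interval, 4 were lower and 1 was higher. No member changed 2-fold in either comparison with scrambled. Both comparisons use the same 4 scrambled libraries.

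**Figure D1:**
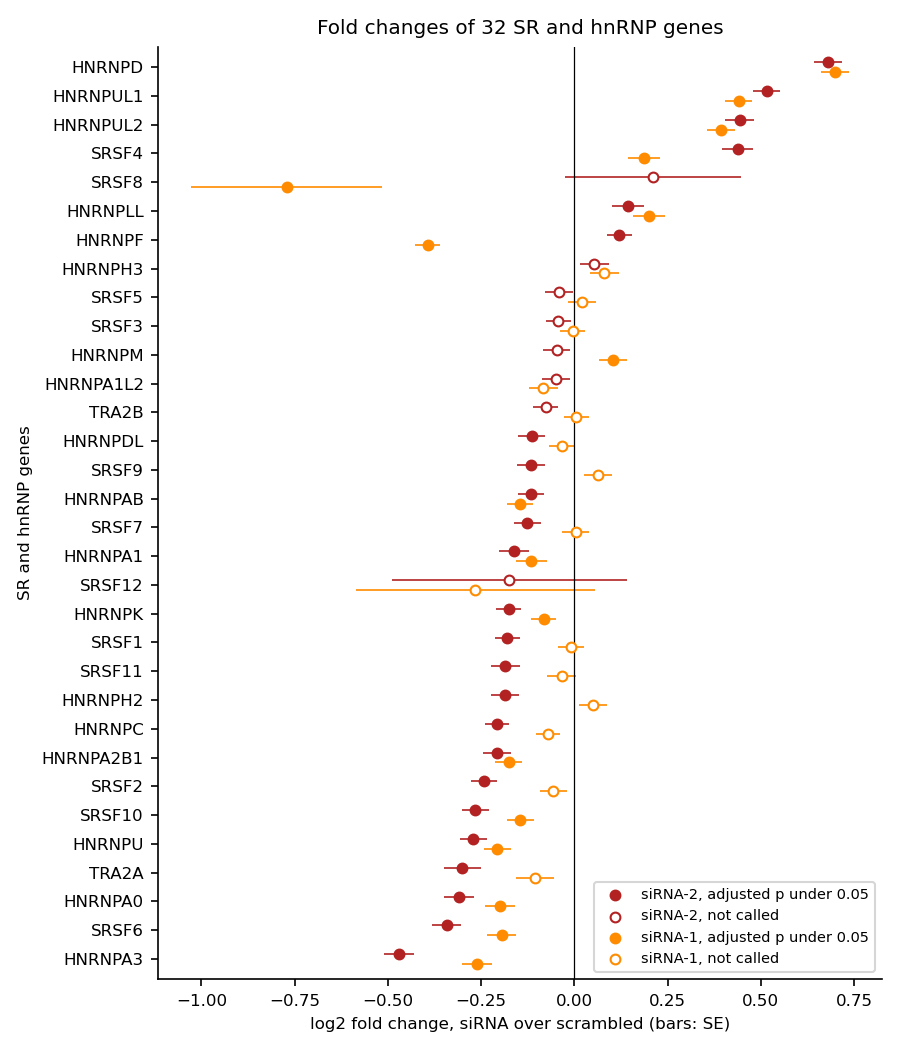
Log2 fold change of each of the 32 genes (x axis) for siRNA-2 and siRNA-1 over scrambled, with bars for the SE and filled points for adjusted p under 0.05. HNRNPD is highest with both siRNAs, HNRNPF lies at 0.12 with siRNA-2 and -0.39 with siRNA-1, and HNRNPA3 is lowest with siRNA-2.

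Genes lowered by both siRNAs numbered 9 and genes raised by both numbered 5. Over all genes tested the shares were 18.5% lower and 22.1% higher with both, and among protein-coding genes of a like level 28.8% and 31.5%. The genes lowered by both were HNRNPA0, HNRNPA1, HNRNPA2B1, HNRNPA3, HNRNPAB, HNRNPK, HNRNPU, SRSF6 and SRSF10. Those raised by both were HNRNPD, HNRNPLL, HNRNPUL1, HNRNPUL2 and SRSF4. A further 9 genes were lowered by siRNA-2 and not called with siRNA-1: HNRNPC, HNRNPDL, HNRNPH2, SRSF1, SRSF2, SRSF7, SRSF9, SRSF11 and TRA2A. With siRNA-1 and not with siRNA-2, HNRNPM was called higher and SRSF8 lower. HNRNPF was called in opposite directions, and HNRNPA1L2, HNRNPH3, SRSF3, SRSF5, SRSF12 and TRA2B were called with neither. The split rests on the threshold for several genes: with siRNA-1, HNRNPA1L2 was called in 9, HNRNPC in 8, TRA2A in 6 and SRSF2 in 3 of 21 alternatives, and with siRNA-2 TRA2B was called in 11 and SRSF9 lost in 2.

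HNRNPD, which encodes AUF1, a protein that binds AU-rich elements and speeds messenger RNA decay, was raised most. It had 353, 361, 332 and 352 CPM with siRNA-2, 345, 349, 351 and 372 CPM with siRNA-1 and 227, 216, 216 and 214 CPM in the scrambled libraries. All 8 siRNA libraries lay above all 4 scrambled libraries. The log2 fold change was 0.68 (adjusted p = 5.76e-14, SE 0.04) with siRNA-2 and 0.70 (adjusted p = 3.77e-14, SE 0.04) with siRNA-1. The HNRNPD interval, chr4:82352498-82373996 on the minus strand, overlaps no other.

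HNRNPUL1 and HNRNPUL2, relatives of HNRNPU with roles in the response to DNA breaks, were raised too. HNRNPUL1 had 425, 443, 427 and 419.5 CPM with siRNA-2, 404, 399, 401 and 424 CPM with siRNA-1 and 304, 310.0, 286 and 298 CPM in the scrambled libraries. Its log2 fold change was 0.52 (adjusted p = 5.24e-12, SE 0.04) with siRNA-2 and 0.44 (adjusted p = 1.19e-10, SE 0.04) with siRNA-1. The 4 libraries of each siRNA lay above all scrambled libraries, while the siRNA groups overlapped each other. HNRNPUL2 had 313, 314, 325 and 329 CPM with siRNA-2, 295, 297, 316 and 329 CPM with siRNA-1 and 234, 240.5, 237 and 231 CPM in the scrambled libraries. Its log2 fold change was 0.44 (adjusted p = 2.35e-10, SE 0.04) with siRNA-2 and 0.39 (adjusted p = 2.44e-09, SE 0.04) with siRNA-1, and here too the siRNA groups overlapped each other but not the scrambled group. Nearly all of HNRNPUL2, 14759 of 14832 bases, lies in the read-through interval HNRNPUL2-BSCL2, with which it shares reads.

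SRSF4, the SR protein SRp75, was the only SR gene raised by both siRNAs. It had 106, 101, 96.6 and 97.8 CPM with siRNA-2, 78.7, 84.2, 86.8 and 87.3 CPM with siRNA-1 and 77.4, 75.5, 73.9 and 69.2 CPM in the scrambled libraries. The siRNA-2 libraries were highest and the scrambled libraries lowest, with no overlap. The log2 fold change was 0.44 (adjusted p = 2.36e-09, SE 0.04) with siRNA-2, 0.19 (adjusted p = 5.92e-04, SE 0.04) with siRNA-1, and 0.25 (adjusted p = 4.93e-05, SE 0.04) between siRNA-2 and siRNA-1. HNRNPLL, a regulator of CD45 splicing in lymphocytes, had 45.7, 47.0, 50.3 and 47.6 CPM with siRNA-2, 50.5, 49.0, 49.4 and 49.0 CPM with siRNA-1 and 40.9, 42.4, 45.1 and 44.0 CPM in the scrambled libraries. Its log2 fold change was 0.14 (adjusted p = 0.00536, SE 0.04) with siRNA-2 and 0.20 (adjusted p = 3.10e-04, SE 0.04) with siRNA-1, and the siRNA-2 call was lost under 3 of 21 alternatives, one of them without scrambled replicate 1 (adjusted p = 0.076).

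HNRNPF, which encodes a protein that binds runs of G, moved in opposite directions. It had 270.1, 266, 268 and 265 CPM with siRNA-2, 185, 184, 186 and 194 CPM with siRNA-1 and 241, 241, 250.5 and 252 CPM in the scrambled libraries. No group overlapped another: siRNA-2 was highest, scrambled next and siRNA-1 lowest. HNRNPF rose by 0.12 (adjusted p = 0.00338, SE 0.03) with siRNA-2 on the log2 scale and fell by 0.39 (adjusted p = 2.76e-10, SE 0.03) with siRNA-1. Between siRNA-2 and siRNA-1 the difference was 0.51 (adjusted p = 1.28e-11, SE 0.03). Without a filter on low counts the siRNA-2 call was lost at an adjusted p of 0.101.

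**Figure D2:**
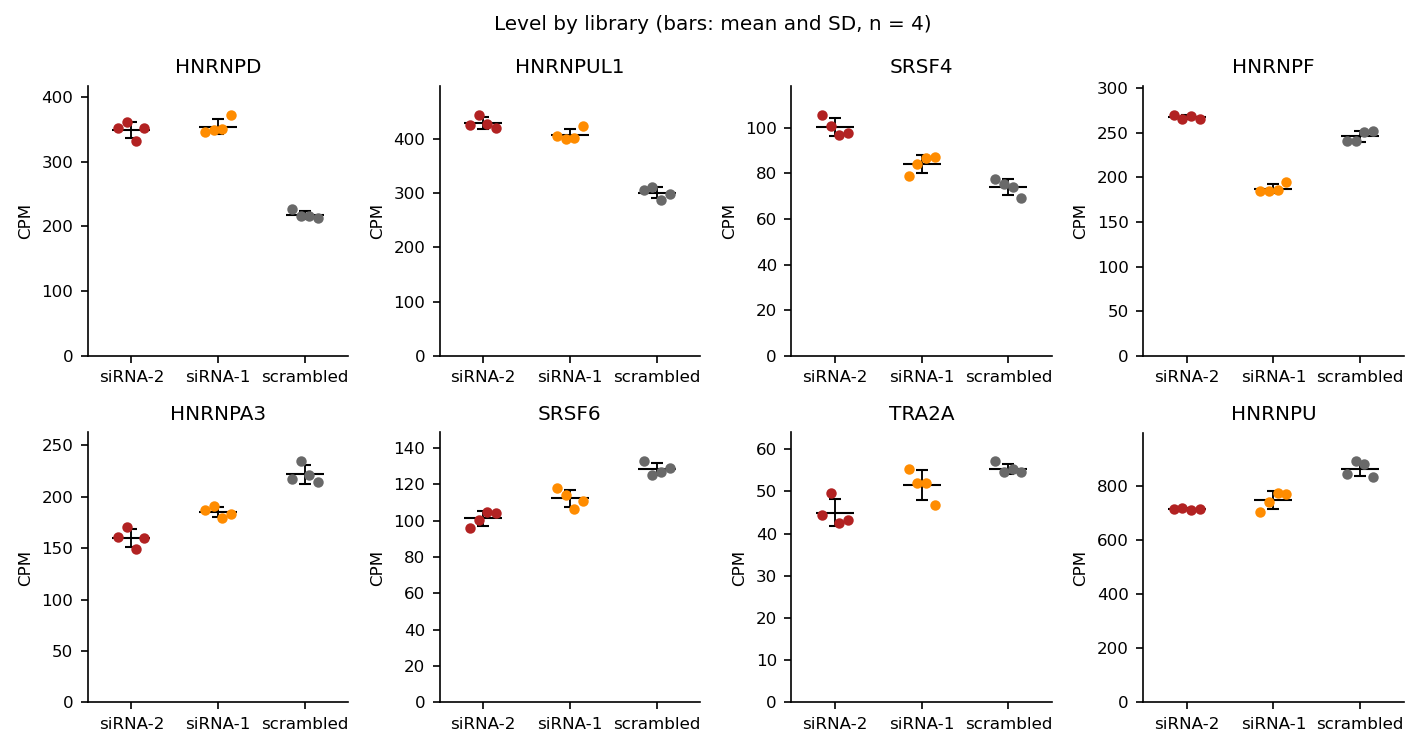
Level in CPM of 8 of the genes in each of the 4 libraries of siRNA-2, siRNA-1 and scrambled, with the mean and SD as bars. HNRNPF is above scrambled with siRNA-2 and below it with siRNA-1, while HNRNPD is near 350 CPM with both.

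The hnRNP A and B genes, whose proteins bind AU-rich or UAGG-like sequence and often repress exons, were lower with both siRNAs, apart from HNRNPA1L2, which was called with neither. HNRNPA3 had 160.5, 171, 149 and 159.9 CPM with siRNA-2, 187, 191, 179 and 183 CPM with siRNA-1 and 217, 234, 221 and 214 CPM in the scrambled libraries. The siRNA-2 libraries were lowest and the scrambled libraries highest, with no overlap between groups. HNRNPA3 fell by 0.47 (adjusted p = 2.87e-10, SE 0.04) with siRNA-2 and by 0.26 (adjusted p = 5.61e-06, SE 0.04) with siRNA-1, and siRNA-2 over siRNA-1 gave -0.21 (adjusted p = 2.46e-04, SE 0.04). Its interval overlaps NFE2L2, whose whole interval holds 39.7% as many reads. HNRNPA0 had 253, 253, 245 and 245 CPM with siRNA-2, 257, 254, 272 and 292 CPM with siRNA-1 and 307, 318, 312 and 297 CPM in the scrambled libraries. No group overlapped another, and siRNA-2 was lowest. HNRNPA0 fell by 0.31 (adjusted p = 3.80e-07, SE 0.04) and 0.20 (adjusted p = 1.75e-04, SE 0.04) with siRNA-2 and siRNA-1. The remaining A and B genes, HNRNPA2B1, HNRNPAB and HNRNPA1, had log2 fold changes between -0.21 and -0.12 with the siRNAs, all called, and the scrambled libraries of HNRNPA2B1 lay between 1634 and 1695 CPM, above all 8 siRNA libraries. The siRNA-1 call of HNRNPA1 was lost under 2 of 21 alternatives, without scrambled replicate 4 and without siRNA-1 replicate 1, at an adjusted p of up to 0.125. HNRNPAB shares 15206 of its bases with PHYKPL, whose whole interval holds 47.15% as many reads. HNRNPA2B1 overlaps CBX3, whose whole interval holds 18.6% as many.

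HNRNPU, a nuclear scaffold protein gene that holds 2 ultraconserved regions, had 714, 718, 713 and 716 CPM with siRNA-2, 705, 740.3, 775 and 769 CPM with siRNA-1 and 845, 890.3, 880.1 and 834 CPM in the scrambled libraries. All siRNA libraries lay below all scrambled libraries. HNRNPU fell by 0.27 (adjusted p = 6.45e-07, SE 0.04) with siRNA-2 and 0.21 (adjusted p = 3.45e-05, SE 0.04) with siRNA-1. COX20 overlaps most of the HNRNPU interval and the 2 hold nearly equal numbers of reads, so they cannot be told apart. HNRNPK had 578, 551, 588 and 581 CPM with siRNA-2, 599, 614, 623 and 617 CPM with siRNA-1 and 668, 650.1, 638 and 641 CPM in the scrambled libraries. No group overlapped another, and siRNA-2 was lowest. The log2 change of HNRNPK was -0.18 (adjusted p = 8.89e-05, SE 0.03) with siRNA-2 and -0.08 (adjusted p = 0.0458, SE 0.03) with siRNA-1, and the siRNA-1 call was lost under 8 of 21 alternatives.

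Among SR genes, siRNA-2 lowered 7 of 12 (58.3%) and raised 1, where it lowered 26.2% and raised 29.9% of all genes tested. siRNA-1 lowered 3 (25.0%) and raised 1, and its share lowered is near the 24.9% over all genes tested. Among protein-coding genes of a like level, siRNA-2 lowered 38.9% and raised 38.1%, and siRNA-1 lowered 34.6% and raised 40.2%. The SR share lowered by siRNA-1 was below this second background. SRSF6, the SRp55 gene, had 95.7, 100.4, 105 and 104 CPM with siRNA-2, 118, 114, 106 and 111 CPM with siRNA-1 and 132, 125, 127 and 129 CPM in the scrambled libraries. No group overlapped another, and siRNA-2 was lowest. SRSF6 fell by 0.34 (adjusted p = 2.89e-08, SE 0.04) with siRNA-2 and 0.20 (adjusted p = 1.19e-04, SE 0.04) with siRNA-1, and overlaps no other interval. SRSF2, the SC35 gene, had 165, 163, 170.3 and 171 CPM with siRNA-2, 191, 194, 182 and 194 CPM with siRNA-1 and 195, 193, 206 and 197 CPM in the scrambled libraries. The siRNA-2 libraries lay below those of both other groups. SRSF2 fell by 0.24 (adjusted p = 1.82e-06, SE 0.04) with siRNA-2, where its change with siRNA-1 was -0.06 (adjusted p = 0.188, SE 0.04). SRSF2 shares 866 of its bases with MFSD11, whose whole interval holds 54.1% as many reads. SRSF10, a regulator that turns repressor when dephosphorylated, fell by 0.27 (adjusted p = 6.86e-07, SE 0.04) and 0.15 (adjusted p = 0.0014, SE 0.04), but lies inside PNRC2. SRSF8, at 16 to 79 reads a library, fell by 0.77 with siRNA-1 (adjusted p = 0.013, SE 0.26) and was 0.21 with siRNA-2 (adjusted p = 0.467, SE 0.24). The siRNA-1 call of SRSF8 was lost under 2 of 20 alternatives, one of them without siRNA-1 replicate 1 alone, at an adjusted p of up to 0.0657.

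Of the 11 genes that hold an ultraconserved region, siRNA-2 lowered 8 (72.7%) and raised 0, where it lowered 26.2% of all genes tested and 38.9% of protein-coding genes of a like level. siRNA-1 lowered 3 (27.3%) and raised 1, near the 24.9% lowered over all genes tested and below the 34.6% lowered among protein-coding genes of a like level. Whether these genes differ from the other members was not tested. SRSF1 had 235, 236, 248 and 239.7 CPM with siRNA-2, 267, 276, 264 and 272 CPM with siRNA-1 and 265, 271, 275 and 275 CPM in the scrambled libraries. The siRNA-2 libraries lay below those of both other groups. SRSF1 fell by 0.18 (adjusted p = 5.84e-05, SE 0.03) with siRNA-2 and was -0.01 with siRNA-1 (adjusted p = 0.842, SE 0.03). Its interval overlaps RP11-159D12.6, whose whole interval holds 30.3% as many reads. SRSF11, a U2-associated SR-like protein gene, had 87.9, 90.4, 84.2 and 86.6 CPM with siRNA-2, 99.4, 98.7, 90.4 and 99.2 CPM with siRNA-1 and 97.7, 103, 95.8 and 100.3 CPM in the scrambled libraries. The siRNA-2 and scrambled libraries did not overlap. SRSF11 fell by 0.19 (adjusted p = 2.22e-04, SE 0.04) with siRNA-2 and was -0.03 with siRNA-1 (adjusted p = 0.489, SE 0.04). SRSF7, the 9G8 gene, had 121, 118, 131 and 122 CPM with siRNA-2, 136, 136, 130.0 and 135 CPM with siRNA-1 and 134, 130.5, 138 and 133 CPM in the scrambled libraries. It fell by 0.13 (adjusted p = 0.0049, SE 0.04) with siRNA-2, with overlapping groups, and was 0.00 with siRNA-1. SRSF3, the SRp20 gene, had 331, 325, 343 and 335 CPM with siRNA-2, 342, 339, 340.1 and 349 CPM with siRNA-1 and 349.7, 354, 338 and 333 CPM in the scrambled libraries, and the log2 fold changes of -0.04 with siRNA-2 (adjusted p = 0.299, SE 0.03) and -0.004 with siRNA-1 (adjusted p = 0.925, SE 0.03) did not pass.

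TRA2A and TRA2B are the human relatives of the fly sex-determination gene transformer-2, and both activate exons rich in GAA. TRA2A had 44.4, 49.6, 42.6 and 43.3 CPM with siRNA-2, 55.4, 51.9, 52.0 and 46.7 CPM with siRNA-1 and 57.1, 54.5, 55.2 and 54.7 CPM in the scrambled libraries. The siRNA-2 and scrambled libraries did not overlap. TRA2A fell by 0.30 (adjusted p = 1.60e-05, SE 0.05) with siRNA-2 and was -0.11 with siRNA-1 (adjusted p = 0.0848, SE 0.05). TRA2B had 153, 161, 158 and 159 CPM with siRNA-2, 169, 166, 161 and 171 CPM with siRNA-1 and 164, 167, 166 and 168 CPM in the scrambled libraries. The siRNA-2 libraries lay below both other groups by a small margin. The TRA2B log2 fold change of -0.08 with siRNA-2 did not pass (adjusted p = 0.0536, SE 0.03), although it passed in 11 of 21 alternatives, and with siRNA-1 it was 0.01 (adjusted p = 0.909).

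HNRNPM, a regulator of splicing in the epithelial to mesenchymal change, had 342, 332, 337 and 338 CPM with siRNA-2, 363, 360.0, 383 and 392 CPM with siRNA-1 and 344, 365, 340.0 and 346 CPM in the scrambled libraries. It was 0.10 with siRNA-1 (adjusted p = 0.0187, SE 0.04), a call lost under 10 of 21 alternatives, and -0.05 with siRNA-2 (adjusted p = 0.286, SE 0.04). HNRNPDL, a relative of HNRNPD that also lies on chromosome 4, had 214, 218, 213 and 219 CPM with siRNA-2, 233, 237, 224 and 219 CPM with siRNA-1 and 231, 226, 237 and 240.5 CPM in the scrambled libraries. Its siRNA-2 libraries lay below all scrambled libraries. It fell by 0.11 (adjusted p = 0.00713, SE 0.04) with siRNA-2, and was -0.03 with siRNA-1 (adjusted p = 0.44, SE 0.04).

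Between the siRNAs, 14 of the 32 genes were lower in siRNA-2 than in siRNA-1 and 3 were higher. Over all genes tested, 16.8% were lower and 15.8% were higher, and among protein-coding genes of a like level 32.5% and 20.6%. The median log2 fold change was -0.07, against -0.001 for all genes tested. Among the 14, the call was lost under 13 of 21 alternatives for HNRNPA0, 12 for HNRNPK and 2 for SRSF10. HNRNPF, SRSF4 and SRSF8 were the genes higher in siRNA-2. HNRNPH2, a paralogue of HNRNPF, went the other way, with 49.0, 50.2, 50.6 and 51.2 CPM with siRNA-2, 58.8, 57.9, 58.8 and 61.0 CPM with siRNA-1 and 56.0, 56.9, 59.4 and 56.3 CPM in the scrambled libraries. The log2 fold change of siRNA-2 over siRNA-1 was -0.24 (adjusted p = 2.58e-05, SE 0.04), with no overlap between these groups. HNRNPH2 shares 6007 of its bases, and the reads on them, with the read-through interval RPL36A-HNRNPH2. SRSF2 stood at -0.19 (adjusted p = 1.84e-04, SE 0.04) and SRSF1 at -0.17 (adjusted p = 2.94e-04, SE 0.03).

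The ultraconserved regions give a second readout of these genes, the reads inside the region relative to those of the rest of the interval. Of the 32 genes, 11 held 15 regions with at least 120 reads. None of the 45 comparisons passed after Benjamini-Hochberg adjustment (smallest adjusted p = 0.321), and the smallest p an exact test of 4 against 4 can give is 0.0286. The groups did not overlap for 2 regions higher and 0 lower with siRNA-2, where 2.72% and 2.17% of the 184 regions in any protein-coding host stood apart in these directions. With siRNA-1 it was 1 higher and 0 lower, against 1.09% and 1.09%. Between siRNA-2 and siRNA-1 it was 0 higher and 1 lower, against 1.63% and 2.72%. Without scrambled replicate 1 the groups lay apart in 10 of the 45 comparisons in place of 4, and no other library left out gave more than 6. Groups of 3 against 4 lie apart more often by chance, in a share of 0.0571 of the possible splits against 0.0286 for 4 against 4. The share over the 184 regions was not computed without this library, so the count of 10 has no background. Scrambled replicate 1 is the library with the most intervals of its own, and whether this matters here was not tested. Regions of 1 gene share its reads and are not independent.

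TRA2A holds both uc.208 and uc.209, which adjoin. Of its reads, uc.208 took 16.5, 15.5, 16.4 and 16.5% with siRNA-2, 14.5, 14.9, 17.4 and 16.3% with siRNA-1 and 15.04, 13.7, 13.4 and 14.1% in the scrambled libraries. With siRNA-2 every library lay above every scrambled library, and the log2 ratio differed by 0.24 (exact two-sided permutation p = 0.0286, Benjamini-Hochberg adjusted p = 0.321). The share in uc.209, which holds the exon printed above, averaged 15.3% ± 1.31 with siRNA-2, 14.8% ± 1.29 with siRNA-1 and 12.8% ± 0.687 in the scrambled libraries (SD, n = 4), a difference in log2 ratio of 0.30 (exact two-sided permutation p = 0.0571, Benjamini-Hochberg adjusted p = 0.351) for siRNA-2 over scrambled. The reads of TRA2A fell by 0.30 on the log2 scale with siRNA-2 while the reads of uc.208 were 7.29 ± 0.29 CPM with siRNA-2 and 7.80 ± 0.54 CPM in the scrambled libraries.

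TRA2B reads in uc.138, the region of its poison exon, made up 28.6, 28.5, 26.6 and 26.3% with siRNA-2, 25.8, 24.9, 25.8 and 28.1% with siRNA-1 and 27.1, 25.7, 25.1 and 23.5% in the scrambled libraries. The groups overlapped, and the log2 ratio of siRNA-2 over scrambled was 0.16 (exact two-sided permutation p = 0.0857, Benjamini-Hochberg adjusted p = 0.351). Of the 419 bases of uc.138, 276 lie in exons of decay transcripts and 99 in exons of protein-coding transcripts. Its reads therefore do not mark the poison exon alone. HNRNPK reads in uc.263, over the coding exon printed above, made up 14.9, 14.7, 14.9 and 14.9% with siRNA-2, 14.0, 13.7, 14.3 and 15.03% with siRNA-1 and 14.2, 13.7, 13.9 and 13.7% in the scrambled libraries. The siRNA-2 libraries lay above all scrambled libraries, a difference of 0.11 (exact two-sided permutation p = 0.0286, Benjamini-Hochberg adjusted p = 0.321). HNRNPU reads in uc.46 made up 9.64, 8.88, 9.42 and 9.41% with siRNA-2, 9.95, 9.80, 9.97 and 10.2% with siRNA-1 and 9.52, 9.31, 9.33 and 9.37% in the scrambled libraries. Here the siRNA-1 libraries lay above all scrambled libraries, with a difference of 0.10 (exact two-sided permutation p = 0.0286, Benjamini-Hochberg adjusted p = 0.321), and above all siRNA-2 libraries.

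An edgeR test of the same region reads with the rest of the interval as offset, chosen after seeing the data and adjusted over 184 regions, called 3 member regions higher with siRNA-2. They were TRA2B uc.138 (0.16, SE 0.05, adjusted p = 0.0283), TRA2A uc.209 (0.30, SE 0.09, adjusted p = 0.0283) and HNRNPK uc.263 (0.11, SE 0.04, adjusted p = 0.0445). Over all hosts it called 5 of 184 regions higher (2.72%) and 3 lower in this comparison. With siRNA-1 it called 0.543% of the regions higher and between the siRNAs 1.09%, with no member among them. The poison exon regions of SRSF3, SRSF6 and SRSF7 were not called by either test: their shares of the gene's reads averaged 18.4%, 6.65% and 19.8% with siRNA-2, 18.2%, 6.77% and 18.9% with siRNA-1, and 17.9%, 6.80% and 19.3% in the scrambled libraries.

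**Figure D3:**
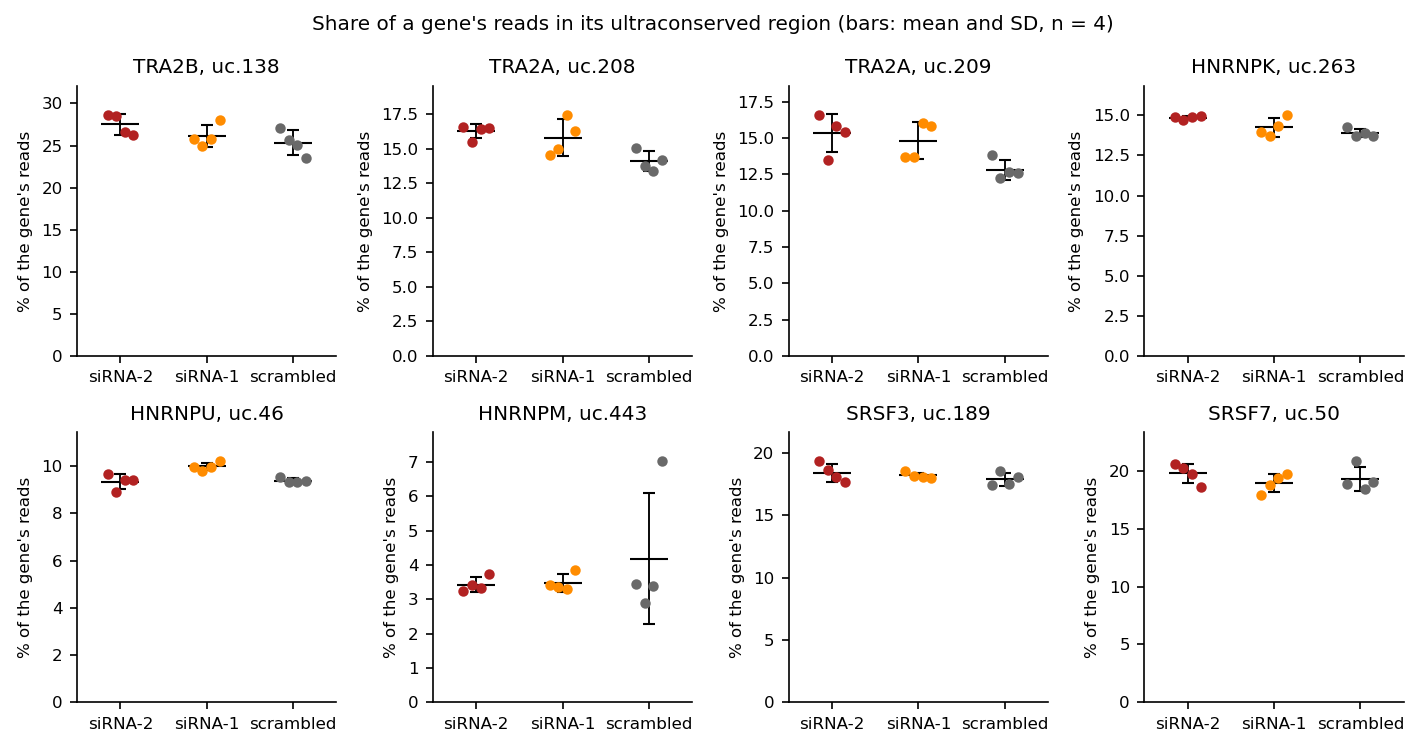
Share of a gene's reads that fall in its ultraconserved region, in percent, for each of the 4 libraries of siRNA-2, siRNA-1 and scrambled, with the mean and SD as bars. The share in TRA2A uc.208 is 15.5% to 16.5% with siRNA-2 and 13.4% to 15.04% in the scrambled libraries, and HNRNPM uc.443 holds 1 scrambled library at 7.02%.

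HNRNPM reads in uc.443 made up 3.25, 3.41, 3.34 and 3.73% with siRNA-2, 3.42, 3.37, 3.29 and 3.87% with siRNA-1 and 3.44, 2.88, 3.40 and 7.02% in the scrambled libraries. Scrambled replicate 4 stood above all other libraries, and the log2 ratio difference was -0.21 (exact two-sided permutation p = 0.771, Benjamini-Hochberg adjusted p = 0.89) with siRNA-2 and -0.18 with siRNA-1. Without scrambled replicate 4 the difference turned to 0.09 with siRNA-2 and 0.11 with siRNA-1 (exact two-sided permutation p = 0.486 for each).

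HNRNPH1, the paralogue of HNRNPF whose gene interval could not be used, holds uc.186 at chr5:179619196-179619500. It held 60.7 ± 2.31 CPM with siRNA-2, 71.3 ± 2.71 CPM with siRNA-1 and 68.4 ± 2.87 CPM in the scrambled libraries. The exact permutation p was 0.0286 for siRNA-2 against scrambled, 0.171 for siRNA-1 against scrambled and 0.0286 for siRNA-2 against siRNA-1, with no host level to set beside them. These p-values are not adjusted, and 0.0286 is the smallest this test can give. How many other regions stand apart in CPM was not counted.

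Lists of other splicing genes are described next, and no list was tested against the rest. Their counts are to be read beside the shares over all genes tested, 26.2% lower and 29.9% higher with siRNA-2 and 24.9% lower and 28.6% higher with siRNA-1. Among protein-coding genes of a like level the shares were 38.9% and 38.1% with siRNA-2, and 34.6% and 40.2% with siRNA-1. Of 31 core snRNP and branch site genes, siRNA-2 lowered 12 (38.7%) and raised 10 (32.3%), near the shares of genes of a like level. siRNA-1 lowered 3 (9.68%) and raised 13 (41.9%). Between siRNA-2 and siRNA-1, 22 of the 31 (71.0%) were lower in siRNA-2 and 1 was higher, with a median of -0.13, where 16.8% of all genes tested and 32.5% of genes of a like level were lower. SF3B4, a branch site protein gene, was 0.46 (adjusted p = 1.46e-11, SE 0.03) with siRNA-2 and 0.68 (adjusted p = 1.18e-14, SE 0.03) with siRNA-1 on the log2 scale. SNRNP200, the helicase that unwinds U4 from U6, was -0.32 (adjusted p = 3.22e-08, SE 0.04) with siRNA-2 and -0.06 (adjusted p = 0.156, SE 0.04) with siRNA-1, and overlaps CIAO1, whose whole interval holds 30.2% as many reads.

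Of 7 SR protein kinase and phosphatase genes, siRNA-2 raised 3 (42.9%) and lowered 2 (28.6%), and siRNA-1 raised 2 (28.6%) and lowered 3 (42.9%). SRPK2, a cytoplasmic SR protein kinase gene, was 0.58 (adjusted p = 2.99e-13, SE 0.03) with siRNA-2 and 0.66 (adjusted p = 2.74e-14, SE 0.03) with siRNA-1, but overlaps KMT2E, whose whole interval holds 91.3% as many reads. CLK3, a nuclear SR protein kinase gene, was -0.18 (adjusted p = 5.55e-04, SE 0.04) and -0.31 (adjusted p = 7.78e-07, SE 0.04) with siRNA-2 and siRNA-1, with EDC3 overlapping it.

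Of 5 nuclear import genes, a number too small to set beside a share, siRNA-2 raised 3 and lowered 2, and siRNA-1 raised 1 and lowered 2. TNPO3, the importin that carries SR proteins, was -0.43 (adjusted p = 4.01e-10, SE 0.04) with siRNA-2 and -0.49 (adjusted p = 4.00e-11, SE 0.04) with siRNA-1, but overlaps IRF5, whose whole interval holds 48.0% as many reads. TNPO1, which carries hnRNP A1 and its relatives, was -0.44 (adjusted p = 9.61e-10, SE 0.04) and -0.51 (adjusted p = 7.50e-11, SE 0.04), while TNPO2 was 0.33 (adjusted p = 1.05e-07, SE 0.04) and 0.37 (adjusted p = 1.87e-08, SE 0.04).

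Of 17 exon junction and nonsense-mediated decay genes, siRNA-2 raised 9 (52.9%) and lowered 4 (23.5%), with a median of 0.20, and siRNA-1 raised 9 (52.9%) and lowered 5 (29.4%), with a median of 0.11. CASC3, an exon junction core gene, was 0.78 (adjusted p = 4.93e-15, SE 0.04) with siRNA-2 and 0.65 (adjusted p = 1.52e-13, SE 0.04) with siRNA-1. EIF4A3, its helicase partner, was 0.52 (adjusted p = 4.92e-12, SE 0.04) and 0.61 (adjusted p = 3.46e-13, SE 0.04). SMG6, the endonuclease of the pathway, was 0.55 (adjusted p = 1.11e-12, SE 0.04) and 0.59 (adjusted p = 3.53e-13, SE 0.04), but overlaps SRR, which holds as many reads.

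Of 13 hnRNP proteins with other gene names, siRNA-2 lowered 6 (46.2%) and raised 1 (7.69%), and siRNA-1 lowered 3 (23.1%) and raised 4 (30.8%). RBMX, the hnRNP G gene, was -0.48 (adjusted p = 7.08e-10, SE 0.04) with siRNA-2 and -0.26 (adjusted p = 1.58e-05, SE 0.04) with siRNA-1. PTBP3 was 0.57 (adjusted p = 3.04e-10, SE 0.05) and 0.72 (adjusted p = 4.44e-12, SE 0.05). Of 18 SR-related coactivators, siRNA-2 lowered 5 and raised 5 (27.8% each), near the shares over all genes tested, and siRNA-1 lowered 3 (16.7%) and raised 8 (44.4%). RNPS1, a coactivator of the exon junction complex, was 0.75 (adjusted p = 2.47e-15, SE 0.03) and 0.79 (adjusted p = 9.34e-16, SE 0.03), although LOC107984839 shares reads with it. Of 23 other splicing regulators, siRNA-2 lowered 8 (34.8%) and raised 7 (30.4%), and siRNA-1 lowered 4 (17.4%) and raised 8 (34.8%). QKI, a regulator of glial splicing, was 1.02 (adjusted p = 1.57e-15, SE 0.05) with siRNA-2 and 1.06 (adjusted p = 7.94e-16, SE 0.05) with siRNA-1.

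**Figure D4:**
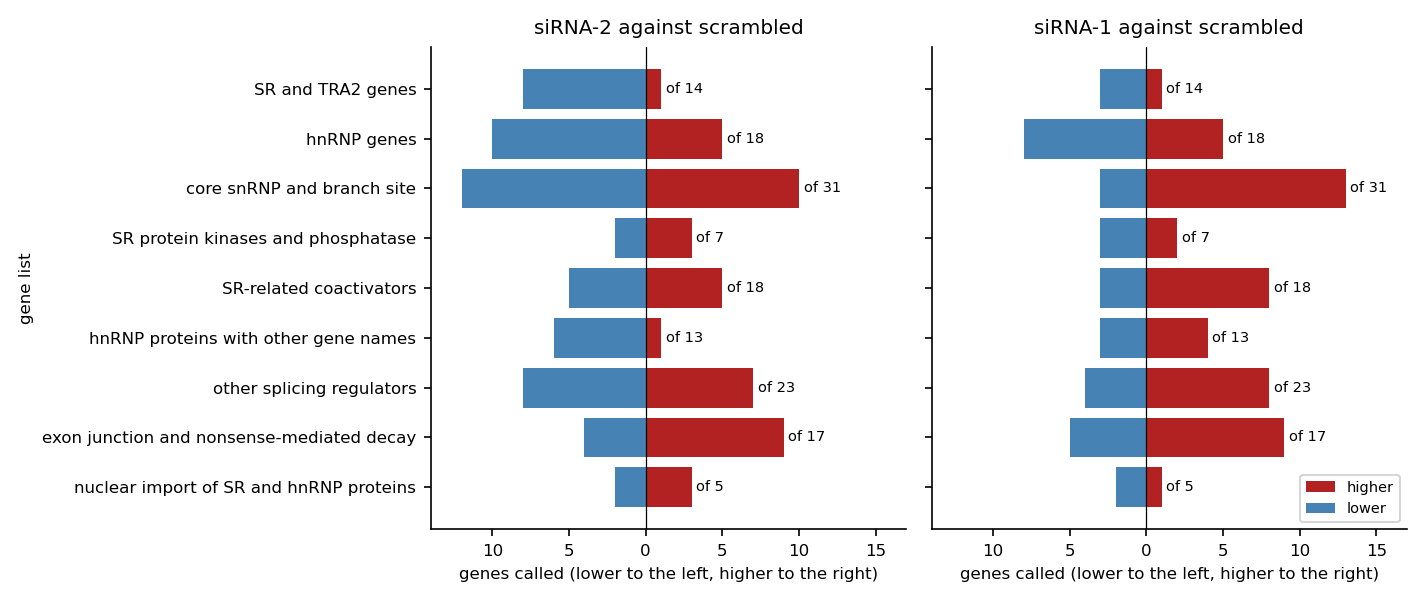
Number of genes called higher (right of 0) and lower (left of 0) for siRNA-2 and siRNA-1 against scrambled in each list, with the number tested beside each bar. In the SR and TRA2 genes 8 of 14 are lower with siRNA-2 and 3 with siRNA-1, and in the core snRNP list 12 and 3 of 31.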

How the data were processed

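Reads were counted by the authors over intervals of the hg38 genome, and the deposited table holds raw counts with no normalization, per the file headers. Salmon and hg38 are named in the submitters' processing notes, without a role, so what counted the intervals is unknown here. Intervals span introns and do not use strand, so overlapping genes share reads. Left out were 3784 gene intervals, of which 1937 reach over 100 kb beyond their gene and 1096 carry an older name.

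The main test was edgeR 4.0.16 (R 4.3.3) with TMM scaling, filterByExpr at its defaults (counts of at least 10, totals of at least 15) and a robust quasi-likelihood model with 1 term, the group, over the 12 libraries. Tests were two-sided and adjusted by Benjamini-Hochberg over all 24841 genes, with a threshold of 0.05. SE is of the log2 fold change, and CPM uses TMM-scaled sizes. Region reads were compared as log2((reads + 0.5)/(rest of interval + 0.5)) by exact two-sided permutation. Replicate numbers do not pair the libraries (correlation -0.13 to 0.10 over the 12 same-numbered pairs). Tested on simulated data for siRNA-1 against scrambled over 24146 genes, changes of 1.2-fold were found in 23 of 50 genes, changes of 1.5-fold were found in 44 of 50, and 8 of 23946 genes without a change were called. In that simulation 23946 of the 24146 genes had no change, far more than the data would leave uncalled, so these rates do not carry over to the members. Alternatives included DESeq2 1.42.0. Members were named by a rule: the 5 highest and 5 lowest called with each siRNA (average log2 CPM of at least 1), the 5 smallest p between the siRNAs, genes called in opposite directions, and hosts of an ultraconserved region. Up to 3 genes of a list by p were named, and some are not reported here. SRSF8 and others given beside a count were named after their values were seen. Members, lists and rule were chosen with earlier results of these data known. Figures used Python 3.11.15 and matplotlib 3.10.9.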

Additional observations from a re-analysis of the deposited data

Results flagged for a closer look

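In HNRNPF the siRNAs differed, with a log2 fold change of 0.51 between siRNA-2 and siRNA-1, and the siRNA-2 change from scrambled was upward and the siRNA-1 change downward. A single library stood far from the other 3 of its group in 5 of 141 groups, where chance flags about 1 in 20. HNRNPM reads in uc.443 were 7.02% of the interval in scrambled replicate 4, against 2.88% to 3.44% in the other scrambled libraries. SRSF6 reads in uc.456 were 5.73% in siRNA-1 replicate 4, against 7.005% to 7.19%. TRA2A reads in uc.208 were 15.5% in siRNA-2 replicate 2, against 16.4% to 16.5%, and SRSF11 was at 90.4 CPM in siRNA-1 replicate 3, against 98.7 to 99.4. SRSF12, at 12 to 26 reads, was at 0.568 CPM in siRNA-1 replicate 1, against 0.248 to 0.3.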

How the results depend on the processing

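The totals of members called moved little, while the number lowered by siRNA-1 moved more. With siRNA-1, 15 to 20 were called under the alternatives, against 17. With siRNA-2 it was 23 to 25, against 24, and between the siRNAs 14 to 18, against 17. The number lowered by siRNA-1 ran from 9, without siRNA-1 replicate 1, to 15, with protein-coding intervals alone, against 11. The number lowered by siRNA-2 ran from 17 to 19, against 18. No named member that was called changed sign, and HNRNPD, HNRNPA3, SRSF4 and SRSF6 kept every call with either siRNA. The replicate block gave 16, 24 and 15 members for siRNA-1, siRNA-2 and the siRNAs against each other. Calls in the same direction by both siRNAs numbered 12 to 17 over the alternatives and 13 with the replicate block, against 14. Without scrambled replicate 1 and siRNA-1 replicate 3, an alternative added after seeing the data, the counts were 16, 24 and 15. For the region ratios, 0 comparisons passed under the other settings and 3 with edgeR and an offset. With a library left out, exact tests of 3 against 4 rest on few possible splits, and paired tests of 4 pairs cannot go below 0.125. Limits: intron reads and overlapping genes enter each interval, SRSF8 and SRSF12 rest on few reads, and reads of poison isoforms are not separated.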
